A study of Mus musculus with 24 samples.

Results

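Splenic B cells labelled as deficient in Tet2 and Tet3 were compared with control B cells within the sort that lacks the surface protein CD93. The comparison rests on 6 of the 24 samples of the series. These are 3 libraries of control cells (genotype control) and 3 libraries of Tet2/Tet3-deficient cells, called DKO libraries as their titles do. Both groups were primary B cells freshly isolated from the spleen of C57BL/6 mice and carried the same sort label, CD93-. The labels give no Cre driver, floxed exon, age or sex, and do not say whether the libraries of a group came from separate animals, so a p-value here reflects only the spread among libraries, which may be technical. The other 18 samples, of CD93-positive cells and of CD93-negative cells divided by CD23 and CD21 levels, were not used here. Expression was measured as FPKM, fragments counted on a gene's transcripts, divided by their length and by library size. Of 23234 genes in the table, 10960 reached at least 1 FPKM in at least 3 of the 6 libraries and were tested.

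TET proteins are dioxygenases that oxidise 5-methylcytosine in DNA, which is a step toward removal of the mark, and in B cells they are known for keeping regulatory regions unmethylated during maturation. CD93 marks immature transitional B cells and some plasma cells, so a CD93-negative sort holds mostly mature cells. Mature splenic B cells are chiefly follicular cells, which carry much CD23 (encoded by Fcer2a), and marginal zone cells, which carry much CD21 (encoded by Cr2). On activation they induce costimulatory ligands such as CD86, and some become antibody-secreting plasma cells that make the joining chain (Igj).

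The sorted cells expressed the defining genes of B cells at high levels in both groups. The antigen receptor subunit gene Cd79a was at 843, 1049 and 1003 FPKM across the control libraries and 919, 964 and 982 FPKM across those of DKO cells, and the summed FPKM of 12 B cell markers was 4500.0 to 5560.0 in control and 4540.0 to 4820.0 in DKO libraries. Of these 12 markers 0 rose and 3 fell, Fcer2a and Cr2 among them. In the B cell marker list 0 rose and 9 fell after rescaling, and 5 fell without control replicate 1. Cd93 itself was low, at 3.88, 4.65 and 4.49 in control and 3.85, 3.68 and 3.32 FPKM in DKO cells. Tet2 and Tet3 had log2 changes of 0.22 and -0.20 and were not called as deposited. After rescaling Tet3 was called lower, with a log2 change of -0.41, and Tet2 was not called. The labels do not say which exons were removed and a gene-level FPKM takes in the whole transcript, so these values do not check the genotype. In bulk RNA, fewer cells of a type and less RNA per cell cannot be told apart.

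Library depth is unknown because the table holds no counts. Control replicate 1 stood apart from the other libraries, with an upper quartile of the tested genes of 18.7 FPKM against 23 to 26.1 in the other 5. Tests were made with limma on log2(FPKM + 1), so a log2 change is on that scale and understates the change of low genes. A gene is said to have risen, fallen or been called where the Benjamini-Hochberg adjusted p over all 10960 genes was under 0.05. The median log2 change over tested genes was 0.11 with the values as deposited and -0.08 when libraries were rescaled to share 1 upper quartile. Counts of increases were close under both, at 2045 genes (18.7% of those tested) and 1869 genes (17.1%). Counts of decreases were not, at 306 genes (2.79%) and 2609 genes (23.8%), and were 1109 genes without control replicate 1. Without DKO replicate 2 or 3, 1337 and 1180 genes rose and 202 and 188 fell. Counts for gene groups are therefore given as deposited, followed by the counts after rescaling or without 1 library where these differ by more than 1.5 times, and group medians are to be read against 0.11. Shares of a group called higher or lower as deposited are to be read against 18.7% and 2.79%. A gene is said not to be called with respect to the values as deposited. Of the 255 genes named here and tested, 34 that were not called as deposited were called lower after rescaling and 0 higher.

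As deposited, increases outnumbered decreases also among the larger changes. Among called genes, 458 rose by 1 or more on the log2 scale (4.18% of those tested) and 32 fell by as much (0.292%), and 447 and all 32 of these kept their call after rescaling. With rescaled values, 329 called increases and 62 called decreases had a change of 1 or more. As deposited, changes of 2 or more were called for 69 increases and 6 decreases. Either direction was called for 21.5% of tested genes as deposited and for 40.9% after rescaling, and the 3 libraries of each group did not overlap for 31.5% of genes in the direction of an increase and 7.43% in that of a decrease. As deposited, increases were also more frequent among strongly expressed genes. Of the 2740 tested genes with the highest means, above 23.9 FPKM, 30.5% rose and 2.7% fell, against 15.7% and 3.76% of the 2740 with the lowest, below 4.47 FPKM. The medians of the called genes were 0.68 for increases and -0.60 for decreases. Of the increases, 157 were below 1 FPKM in every control library, and of the decreases 27 in every DKO library. These genes passed the filter only through the group in which they were higher, so their separation is in part fixed by the filter. They include 6 of the mitotic, 4 of the plasma cell, 4 of the germinal center, 3 of the serpin and 3 of the replication genes that rose, and 1 or 2 members of other lists. Among the increases named below they include Iigp1, Fam46c, Prdm1, Pdcd1, Tnfsf4, Cd28, Cdc6, Lilrb4, Socs2 and Slc4a1. Among the decreases named below they include Magi1, Asb2 and Rgs13. Such a gene cannot pass when a library of its higher group is left out, so part of the smaller counts of increases without a DKO library are lost tests and not lost calls.

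**Figure D1:**
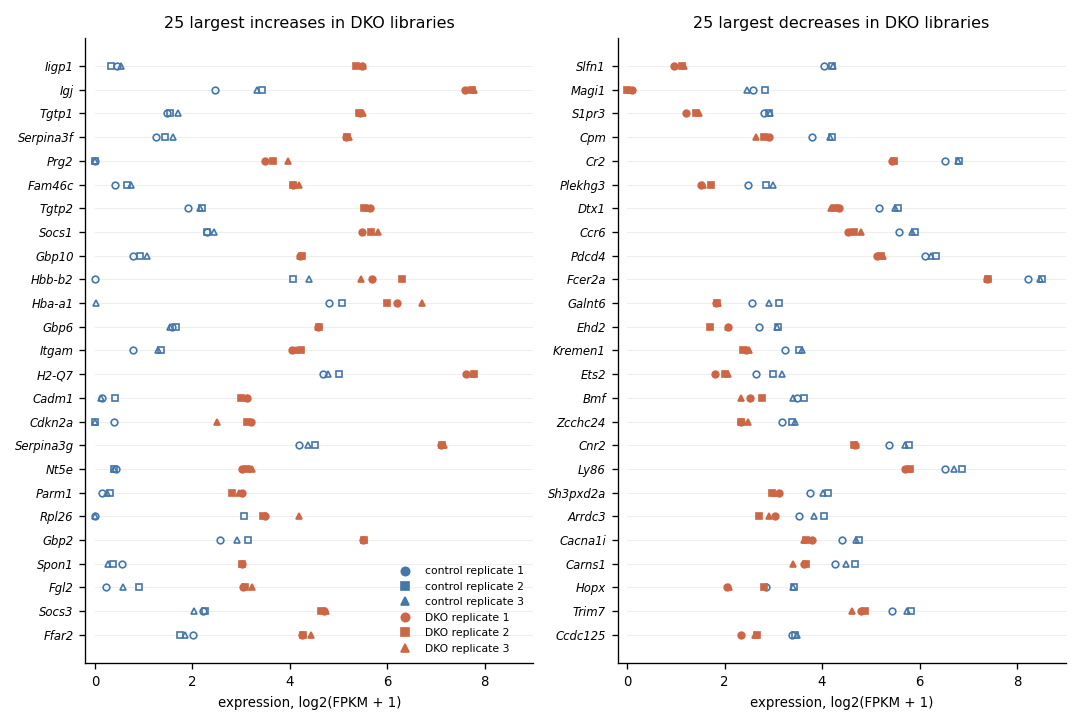
Expression in each library, as log2(FPKM + 1), of the 25 largest called increases (left) and 25 largest called decreases (right) among genes with a group mean of at least 5 FPKM whose groups do not overlap; open blue symbols are control and filled orange symbols DKO libraries, with a shape for each replicate. Many increases started near 0 in control cells, while the decreases mostly stopped well above 0, with Slfn1, Magi1 and S1pr3 nearest to 0.

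The 25 largest increases held 3 kinds of gene beyond the interferon-inducible and plasma cell genes described below. The first were surface proteins that were near 0 in control cells. Cadm1, an adhesion molecule of the immunoglobulin superfamily, was at 0.0974, 0.329 and 0.0849 FPKM across the control libraries and 7.69, 6.99 and 7.73 FPKM across those of DKO cells. Nt5e, which encodes the ecto-enzyme CD73 that makes adenosine from AMP, was at 0.352, 0.308 and 0.307 in control and 7.15, 7.76 and 8.34 FPKM in DKO cells. Parm1, a mucin-like membrane protein, was at 0.105, 0.237 and 0.183 in control and 7.15, 6.04 and 6.79 FPKM in DKO cells. In these 3 genes every control library was below 1 FPKM and every DKO library above 5 FPKM, a separation that the choice of the largest changes favours. The second kind were secreted or receptor genes. Spon1, an extracellular matrix protein, was at 0.465, 0.299 and 0.203 in control and 7.096, 7.04 and 7.13 FPKM in DKO cells, Fgl2, a fibrinogen-like protein that can be secreted, was at 0.167, 0.875 and 0.484 in control and 7.17, 7.45 and 8.29 FPKM in DKO cells, and Ffar2, a receptor for short-chain fatty acids, was at 3.02, 2.34 and 2.603 in control and 18.001, 18.3 and 20.7 FPKM in DKO cells. Groups that do not overlap were required of all 25, so the separation in these genes is no result of its own. Spon1 and Fgl2 were below 1 FPKM in every control library and passed the filter only through the DKO libraries.

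The third kind was Cdkn2a, which encodes the cell cycle inhibitors p16INK4a and p19ARF. It was at 0.306, 0 and 0 FPKM across the control libraries and 8.199, 7.74 and 4.64 FPKM across those of DKO cells, so 2 control libraries were listed at 0 and the lowest DKO library was at 4.64 FPKM. It passed the filter only through the DKO libraries and could not be tested when any 1 of them was left out. A few of the 25 rest on unstable values. Rpl26 had 0.00169, 7.29 and 0.00144 in control and 10.3, 9.98 and 17.4 FPKM in DKO cells. The globin gene Hbb-b2 had 0.00127, 15.8 and 19.9 in control and 50.7, 78.2 and 43.3 FPKM in DKO cells, and Hba-a1 had 27.1, 32.5 and 0.009299 in control and 72.3, 62.8 and 103 FPKM in DKO cells. In each, at least 1 control library was near 0 while another of the same group was above 5 FPKM. The calls of both globin genes were lost after rescaling, and those of Hba-a1 and Rpl26 without control replicate 1.

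Of the 25 largest decreases, Slfn1 and Magi1 fell most. Slfn1, a Schlafen family gene linked to lymphocyte quiescence, was at 15.4, 17.5 and 17.6 FPKM across the control libraries and 0.952, 1.16 and 1.25 FPKM across those of DKO cells. Magi1, a scaffold protein of cell junctions, was at 4.96, 6.095 and 4.52 in control and 0.0646, 0 and 0.0234 FPKM in DKO cells, with 1 DKO library listed at 0. Magi1 passed the filter only through the control libraries. S1pr3, a receptor for sphingosine 1-phosphate that marginal zone B cells carry, was at 5.97, 6.56 and 6.61 in control and 1.296, 1.66 and 1.78 FPKM in DKO cells. The remaining 22 had DKO means between 0.343 and 0.523 of the control mean. Among them were the carboxypeptidase gene Cpm (15.7 ± 2.44 against 5.92 ± 0.646 FPKM), the translation inhibitor gene Pdcd4 (74.1 ± 6.35 against 35.7 ± 1.49 FPKM), the glycosyltransferase gene Galnt6 (6.33 ± 1.39 against 2.57 ± 0.0363 FPKM), the Wnt antagonist receptor gene Kremen1 (9.96 ± 1.35 against 4.41 ± 0.246 FPKM), the transcription factor gene Ets2 (6.74 ± 1.395 against 2.91 ± 0.377 FPKM), the arrestin-like gene Arrdc3 (13.1 ± 2.46 against 6.39 ± 0.836 FPKM), the calcium channel gene Cacna1i (23.7 ± 3.21 against 11.99 ± 0.709 FPKM) and the homeodomain-only gene Hopx (8.47 ± 2.01 against 4.12 ± 1.61 FPKM), given as mean ± SD of n = 3 libraries in control and then in DKO cells. Hopx was the only one of these 8 with control replicate 1 close to a DKO library, at 6.15 against 5.98 FPKM.

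Interferon-inducible genes gave many of the largest increases. Interferons bind surface receptors that signal through JAK kinases to STAT factors. STAT dimers bind the GAS element, and complexes of STAT factors with IRF9, as well as IRF1, bind the ISRE. Their targets include the immunity-related GTPases (IRG) and guanylate-binding proteins (GBP), which attack the vacuoles of intracellular pathogens, the antiviral genes, and the genes of antigen presentation on MHC class I. The promoters below were chosen after their motifs were seen, to show these elements. They belong to the IRG genes Tgtp1, Igtp and Irgm1, to Gbp2 and to Socs1, Irf1 and Serpina3g, all of which rose, and are the 150 bases before the annotated start in RefSeq on GRCm38.p6, 5′ to 3′ on the gene's strand. GAS motifs (TTCNNNGAA) and ISRE cores (GAAANNGAA, both strands searched, overlaps allowed) are in capitals. Positions are Tgtp1 chr11:48992247-48992396, minus strand, Igtp chr11:58199406-58199555, plus strand, Irgm1 chr11:48871421-48871570, minus strand, Gbp2 chr3:142620513-142620662, plus strand, Socs1 chr16:10785537-10785686, minus strand, Irf1 chr11:53769864-53770013, plus strand and Serpina3g chr12:104235997-104236146, plus strand.
Tgtp1: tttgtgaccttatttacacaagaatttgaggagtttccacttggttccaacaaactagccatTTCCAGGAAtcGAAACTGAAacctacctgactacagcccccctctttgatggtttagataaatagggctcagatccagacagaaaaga
Igtp: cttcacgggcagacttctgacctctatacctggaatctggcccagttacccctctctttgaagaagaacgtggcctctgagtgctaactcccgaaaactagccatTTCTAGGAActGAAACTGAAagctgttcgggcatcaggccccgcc
Irgm1: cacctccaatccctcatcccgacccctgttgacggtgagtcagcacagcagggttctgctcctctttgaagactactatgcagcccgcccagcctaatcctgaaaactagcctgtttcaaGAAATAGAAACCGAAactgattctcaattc
Gbp2: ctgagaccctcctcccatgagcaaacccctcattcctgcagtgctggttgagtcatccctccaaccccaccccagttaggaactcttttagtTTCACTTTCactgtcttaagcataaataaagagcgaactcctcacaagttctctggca
Socs1: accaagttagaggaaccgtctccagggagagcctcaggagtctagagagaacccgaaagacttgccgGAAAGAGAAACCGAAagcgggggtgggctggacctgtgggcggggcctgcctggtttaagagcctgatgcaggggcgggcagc
Irf1: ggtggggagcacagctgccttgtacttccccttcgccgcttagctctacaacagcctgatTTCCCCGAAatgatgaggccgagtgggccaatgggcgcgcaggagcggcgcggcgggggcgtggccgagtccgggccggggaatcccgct
Serpina3g: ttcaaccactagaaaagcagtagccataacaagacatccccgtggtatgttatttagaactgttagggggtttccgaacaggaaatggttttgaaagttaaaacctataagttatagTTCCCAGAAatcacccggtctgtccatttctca

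In Tgtp1 and Igtp a GAS and an ISRE core lie 2 bases apart, in Irgm1 and Socs1 a pair of ISRE cores share bases, and Irf1 and Serpina3g hold a GAS alone. An ISRE core was found in 8 of the 10 IRG promoters, 4 of the 5 GBP promoters and 15 of the 27 antiviral gene promoters in the RefSeq table, against 7.36% of the 10903 promoters of all tested genes and 8.56% of all 32851 promoters of the same 300-base length. Of 22 promoters of MHC class I route genes 5 held an ISRE core, or 22.7%, and 2 a GAS. A GAS was found in 5 of the 10 IRG, 2 of the 5 GBP and 7 of the 27 antiviral promoters, against 6.9% and 8.3%. Neither motif was found in the promoters of Psmb9, Tap1, H2-Q7 and Cxcr3, which also rose. These promoters belong to 10 of 14 IRG, 4 of 10 GBP, 23 of 32 antiviral and 20 of 24 class I tested members, so the shares leave out many members, and a match shows only that the letters are there.

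Of 14 tested IRG genes, 9 rose and 0 fell, with a median log2 change of 1.35. In the IRG list 9 rose and 2 fell after rescaling, and 2 fell without control replicate 1. Iigp1 was at 0.362, 0.255 and 0.442 FPKM across the control libraries and 43.5, 39.8 and 44.2 FPKM across those of DKO cells, a 121-fold ratio of the means. Iigp1 passed the filter only through the DKO libraries, and its ratio divides by a low control mean of 0.353 FPKM. Igtp, which encodes Irgm3, was at 7.35, 11.4 and 10.6 in control and 50.5, 50.99 and 55.5 FPKM in DKO cells. Irgm1 was at 21.4, 26.8 and 24.8 in control and 87.5, 80.9 and 81.6 FPKM in DKO cells, so the member with the highest control FPKM among those that rose had a smaller ratio than Iigp1 and Igtp. Not all members moved. 9930111J21Rik1 and 9930111J21Rik2 had log2 changes of -0.26 and -0.27 and Gm5431 one of 0.06, without a call, and 9930111J21Rik1 and 9930111J21Rik2 were the members that fell after rescaling.

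Of 10 tested GBP genes, 9 rose. Gbp2 was at 4.93, 7.85 and 6.59 in control and 44.5, 44.7 and 45.2 FPKM in DKO cells, with the DKO libraries close together. Gbp6 was at 2.01, 2.15 and 1.89 in control and 22.8, 23.3 and 22.8 FPKM in DKO cells and Gbp7 at 4.49, 5.24 and 4.87 in control and 22.7, 21.4 and 21.998 FPKM in DKO cells. Gbp9, the exception, was at 31.2 ± 3.52 against 39.1 ± 0.312 FPKM (adjusted p = 0.0941). Tgtp1 and Tgtp2, and several Gbp genes, are near-identical copies between which reads may have been split, so single values are uncertain while sums over a family are less so. The summed FPKM was 129 to 162 in control and 385 to 412 in DKO libraries for the IRG genes, and 78 to 102 against 245 to 247 for the GBP genes.

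Antiviral genes rose nearly throughout but by less. Of 32 tested, 30 rose and 0 fell, with a median of 0.94. Zbp1, a sensor of Z-form nucleic acids, went from 19.2 ± 0.335 to 82.4 ± 0.363 FPKM, and Mx1, a dynamin-like antiviral GTPase, from 4.14 ± 1.07 to 14.2 ± 0.771 FPKM. Usp18, which removes ISG15 from proteins and dampens the type I receptor, went from 3.39 ± 1.09 to 10.9 ± 0.691 FPKM. The 2 members without a call were Trim25 (log2 change 0.37, adjusted p = 0.0521) and the RNA sensor gene Ddx58 (0.12, 0.584).

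**Figure D2:**
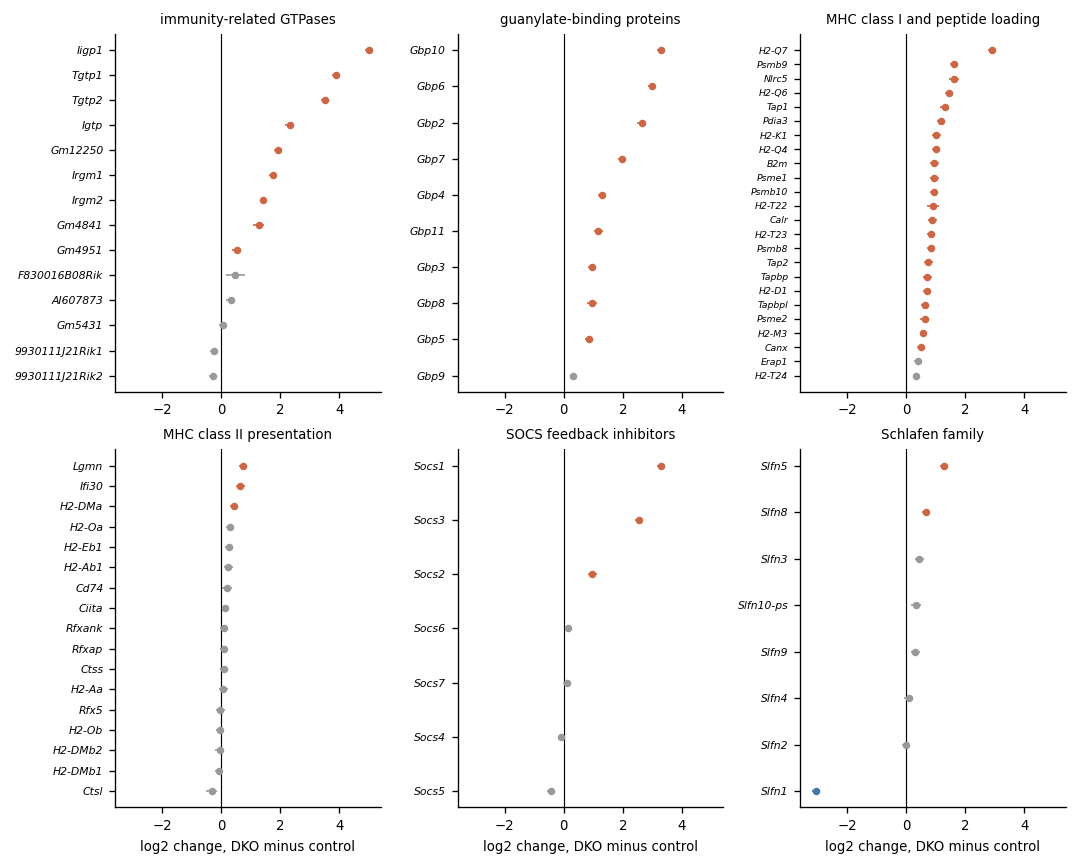
Log2 change (DKO minus control) with its SE for every tested member of 6 families; orange points were called higher, blue lower and grey not called. The MHC class I panel lies to the right of 0 with 22 of 24 members called, the MHC class II panel lies near 0 with 3 of 17, and Slfn1 is the single blue point, at -3.07.

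The signalling genes upstream of these targets did not move as a body. Of 22 tested interferon and cytokine receptor genes, 2 rose and 1 fell. Il12rb1, a chain shared by the receptors of IL-12 and IL-23, was at 0.5198, 1.28 and 1.36 FPKM across the control libraries and 8.62, 6.49 and 8.29 FPKM across those of DKO cells, with no overlap. Il9r, the IL-9 receptor, was at 16.9, 21.6 and 21.9 in control and 9.903, 11.4 and 10.9 FPKM in DKO cells. The abundant receptors Il2rg, Il21r, Tgfbr2 and Il17ra had log2 changes between -0.15 and 0.24 without a call. In the receptor list 2 rose and 9 fell after rescaling, 1 rose without control replicate 1, control replicate 3, DKO replicate 1, DKO replicate 2 or DKO replicate 3, and 5 fell without control replicate 1.

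Of 11 tested JAK and STAT genes, 4 rose. Jak3, the kinase of the common gamma chain, was at 29.4, 35.4 and 34.8 FPKM across the control libraries and 68.7, 68.98 and 68.9 FPKM across those of DKO cells. Stat3 rose by 0.76 and Stat2 by 0.71 on the log2 scale. Jak1, Tyk2, Stat5b and Stat6 had changes between -0.14 and 0.03 and were not called as deposited. In the JAK and STAT list 4 rose and 5 fell after rescaling, and 2 fell without control replicate 1.

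Interferon regulatory factors are the transcription factors next in the chain. Irf1 was at 45.9, 58.1 and 58.6 FPKM across the control libraries and 170.3, 164 and 189 FPKM across those of DKO cells, and Irf7, Irf8, Irf9 and Irf2 rose by 0.93, 0.77, 0.53 and 0.45. Irf3, which is activated by phosphorylation rather than by induction, was at 42.5 ± 7.25 against 43.1 ± 1.53 FPKM. Irf4 and Irf5, which act in plasma cell formation and Toll-like receptor signalling, had changes of 0.07 and -0.25 without a call. In all 5 of 8 members rose. In the IRF list 5 rose and 2 fell after rescaling, 3 rose without DKO replicate 3, and 1 fell without control replicate 1.

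The SOCS proteins close the loop by inhibiting JAK kinases. Socs1 was at 3.9001, 3.95 and 4.42 FPKM across the control libraries and 43.5, 49.6 and 54.9 FPKM across those of DKO cells and Socs3 at 3.62, 3.77 and 3.08 in control and 25.1, 23.99 and 25.9 FPKM in DKO cells. Socs2 rose from 0.304 ± 0.0236 to 1.55 ± 0.124 FPKM. The other 4 tested members, Socs4, Socs5, Socs6 and Socs7, had changes from -0.43 to 0.15 and were not called. In the SOCS list 3 rose and 2 fell after rescaling, and 1 fell without control replicate 1.

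The Schlafen genes split. Slfn1 fell, as given above, while Slfn5 rose from 8.33 ± 0.936 to 21.5 ± 0.9297 FPKM and Slfn8 from 19.4 ± 2.61 to 31.2 ± 0.986 FPKM. Slfn2, the most abundant member and one that is known to keep lymphocytes quiescent, was at 139, 173 and 144 in control and 139, 154 and 154 FPKM in DKO cells, with overlapping groups and an adjusted p of 0.939. Slfn1 was thus the 1 member of 8 that was called lower as deposited. In the Schlafen list 2 rose and 2 fell after rescaling.

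Antigen presentation genes of MHC class I and class II differed in their counts. MHC class I molecules display peptides that the proteasome makes in the cytosol and that TAP carries into the endoplasmic reticulum. Of 24 tested genes of that route, 22 rose and 0 fell under both scalings, with a median of 0.90. Nlrc5, the transactivator of class I genes, was at 9.58, 15.3 and 13.7 FPKM across the control libraries and 40.6, 40.3 and 42.1 FPKM across those of DKO cells. Tap1 was at 67.7, 93.3 and 83.7 in control and 196, 201 and 204 FPKM in DKO cells, and Psmb9, a subunit of the immunoproteasome, at 64.7, 89.9 and 74.1 in control and 229, 228 and 249 FPKM in DKO cells. H2-Q7, a class Ib gene, went from 27.6 ± 3.45 to 210.1 ± 13.7 FPKM, with the reservation that H2-Q genes are near-identical copies.

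MHC class II molecules display peptides from the endosome. Of 17 tested genes, 3 rose, all 3 of which act inside endosomes or lysosomes. They were the protease gene Lgmn (42.6 ± 5.87 against 70.8 ± 4.13 FPKM), the thiol reductase gene Ifi30 (188 ± 28.9 against 294 ± 15.9 FPKM) and the peptide exchange gene H2-DMa (203 ± 20.7 against 273 ± 4.54 FPKM). The class II chains themselves were not called. H2-Ab1 was at 1333, 1655 and 1518 in control and 1626, 1826 and 1825 FPKM in DKO cells, and the invariant chain gene Cd74 at 4061, 5339 and 4836 in control and 5198, 5308 and 5829.6 FPKM in DKO cells, with overlapping groups. The share of class II genes called higher was 3 of 17, close to the 18.7% of all tested genes. In the class II list 3 rose and 5 fell after rescaling, and 1 fell without control replicate 1.

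**Figure D3:**
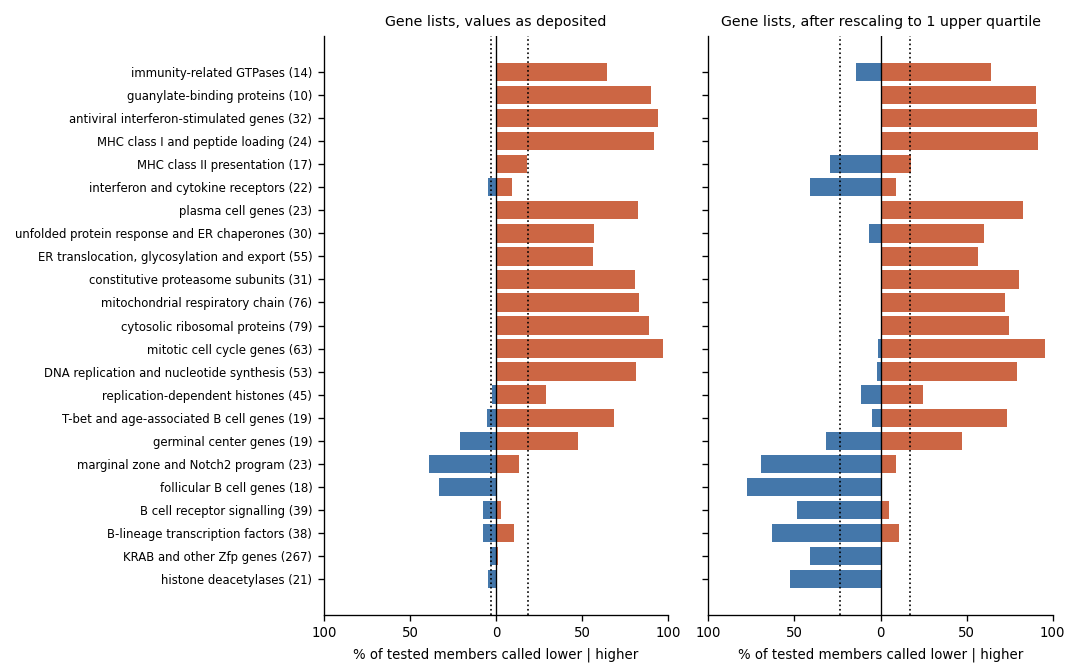
Percent of the tested members of 23 gene lists called higher (orange, to the right) or lower (blue, to the left) in DKO cells, as deposited (left panel) and after rescaling to 1 upper quartile (right panel), with the number tested in brackets; dotted lines are the percent of all tested genes called in each direction. Lists with most members higher keep that in both panels, while lists of B cell receptor, transcription factor, Zfp and deacetylase genes have most of their blue bars only after rescaling.

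Surface ligands and receptors changed in a selective way. Of 17 tested costimulatory and checkpoint ligand genes, 9 rose and 3 fell. In the ligand list 8 rose and 5 fell after rescaling, 5 rose without DKO replicate 1 or DKO replicate 2, 4 rose without DKO replicate 3, 5 fell without control replicate 1, 1 fell without control replicate 2 or DKO replicate 1, and 0 fell without control replicate 3, DKO replicate 2 or DKO replicate 3. Cd86 was at 8.65, 7.57 and 8.65 FPKM across the control libraries and 17.1, 17.6 and 18.6 FPKM across those of DKO cells, and Cd80, its partner as a ligand of CD28 and CTLA-4, at 0.927, 0.596 and 1.27 in control and 2.68, 2.19 and 3.23 FPKM in DKO cells. Tnfsf4, which encodes OX40 ligand, was at 0, 0.211 and 0.491 in control and 1.83, 2.46 and 1.97 FPKM in DKO cells. Icosl, the ligand of ICOS on helper T cells, fell from 85.8 ± 11.3 to 59.5 ± 0.507 FPKM, and Pdcd1lg2, a ligand of PD-1, from 3.92 ± 0.244 to 2.58 ± 0.374 FPKM. Cd40 and Cd274 had changes of -0.34 and -0.24 without a call.

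Some receptors usually described on T cells were also higher. Of 12 tested, 5 rose, or 41.7% beside 18.7% of all tested genes, 0 fell and 7 were not called. In the checkpoint receptor list 5 rose and 2 fell after rescaling, 3 rose without DKO replicate 1, DKO replicate 2 or DKO replicate 3, and 2 fell without control replicate 1. Pdcd1, which encodes PD-1, was at 0, 0 and 0.2999 FPKM across the control libraries and 3.51, 3.23 and 4.203 FPKM across those of DKO cells, and Lag3 was at 3.15, 5.11 and 5.31 in control and 17.996, 15.4 and 20.8 FPKM in DKO cells. Tigit went from 4.54 ± 1.19 to 11.5 ± 1.76 FPKM and Havcr1, which encodes TIM-1, from 4.296 ± 1.41 to 11.2 ± 0.133 FPKM. Cd28 was at 0.434, 0.939 and 0.6296 in control and 3.295, 2.43 and 3.44 FPKM in DKO cells. Beside these, 6 of 11 T cell markers rose, such as Cd3g (1.65 ± 0.906 against 4.52 ± 1.12 FPKM), and the summed FPKM of all T cell markers, of which Cd2 gave the most, was 105 to 138 in control and 124 to 130.0 in DKO libraries. In the T cell marker list 5 rose and 1 fell after rescaling, and 1 fell without control replicate 1. The part of T cell RNA in the checkpoint receptor values was not tested. Btla, a checkpoint receptor that B cells express, had a change of -0.12 and was not called.

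Of 28 tested homing receptor genes 6 rose and 7 fell, or 21.4% and 25% beside 18.7% and 2.79% of all tested genes. The share that rose was thus close to that of all tested genes. Cxcr3, the receptor of the interferon-induced chemokines CXCL9 and CXCL10, was at 2.96, 4.87 and 5.53 FPKM across the control libraries and 27.3, 29.9 and 26.9 FPKM across those of DKO cells. Ccr6, which guides B cells and dendritic cells to CCL20, was at 46.6, 59.2 and 56.5 in control and 22.2, 24.3 and 26.8 FPKM in DKO cells, and Cnr2, the cannabinoid receptor that holds marginal zone B cells in place, at 40.4, 54.5 and 51.4 in control and 24.5, 24.4 and 25.1 FPKM in DKO cells. Cxcr5, the receptor that directs B cells to follicles, fell from 105 ± 12.3 to 70.9 ± 0.849 FPKM. S1pr1 and Ccr7 had changes of -0.28 and 0.19 and were not called. 

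Few cytokine genes were expressed, and 15 of 32 were tested. Of these 5 rose and 1 fell, or 33.3% and 6.67% beside 18.7% and 2.79% of all tested genes. Csf1, the macrophage growth factor, was at 0.973, 1.06 and 1.23 FPKM across the control libraries and 7.71, 5.91 and 6.702 FPKM across those of DKO cells. The chemokine genes Ccl4 and Ccl3 were at 2.17, 2.27 and 0 in control and 9.205, 10.1 and 10.6 FPKM in DKO cells and at 0.675, 1.52 and 2.35 in control and 5.24, 3.28 and 3.24 FPKM in DKO cells. Lta, which encodes lymphotoxin alpha, fell from 21.1 ± 4.38 to 12.96 ± 0.955 FPKM, while its partner Ltb was at 448 ± 69.4 against 425 ± 20.5 FPKM. Ebi3, a subunit of IL-27 and IL-35, rose by 0.56, a call that was lost after rescaling. In the cytokine list 4 rose and 6 fell after rescaling, and 3 fell without control replicate 1.

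Toll-like receptors and their partners split by member. Of 20 tested, 6 rose and 3 fell. In the Toll-like receptor list 7 rose and 8 fell after rescaling, and 7 fell without control replicate 1. Tlr7, the endosomal receptor of single-stranded RNA, was at 10.5, 12.2 and 13.5 FPKM across the control libraries and 23.9, 21.4 and 23.5 FPKM across those of DKO cells, and the adaptor gene Myd88 at 12.2, 19.6 and 15.6 in control and 28.1, 27.9 and 27.7 FPKM in DKO cells. Unc93b1, the chaperone of endosomal Toll-like receptors, rose from 299 ± 42.5 to 411 ± 11.4 FPKM. Ly86, which encodes MD-1 and pairs with CD180 at the surface, was at 91.6, 117 and 103 in control and 50.8, 55.02 and 54.4 FPKM in DKO cells, and Cd180 itself had a change of -0.13 without a call. Tlr1, a surface receptor of lipopeptides, fell from 58.6 ± 7.68 to 41.02 ± 2.895 FPKM.

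The plasma cell program was higher in part. Plasma cells carry the transcription factors Prdm1, Xbp1 and Irf4, and fill the cell with endoplasmic reticulum (ER). Among plasma cell genes 19 of 23 rose and 0 fell, with a median of 1.22. In the plasma cell list 12 rose without DKO replicate 3. Igj was at 4.49, 9.78 and 9.09 FPKM across the control libraries and 192, 212 and 221 FPKM across those of DKO cells. Prdm1, which encodes Blimp-1, was at 0.481, 0.542 and 0.874 in control and 3.37, 3.08 and 3.11 FPKM in DKO cells, and Fam46c, a poly(A) polymerase of secreted protein messages, at 0.326, 0.5698 and 0.662 in control and 15.8, 15.7 and 17.2 FPKM in DKO cells. Irf4 and Sdc1, which encodes the plasma cell surface marker CD138, were not called, and Sdc1 was at 3.47, 5.73 and 4.902 in control and 5.54, 4.59 and 6.85 FPKM in DKO cells, with overlapping groups.

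Genes of ER folding rose with them. The unfolded protein response acts through ATF6 and XBP1 at ER stress elements, which hold a CCAAT box and a CCACG tail at a set spacing. The promoters of Sdf2l1 (chr16:17132384-17132533, minus strand) and Hsp90b1 (chr10:86705445-86705594, minus strand) are given as the 150 bases before the start, with both motifs in capitals on either strand. They were chosen among the larger increases of the list for holding both motifs, so the presence of the motifs in them is no result. Each motif is marked on its own, whatever its spacing or order, so the capitals alone do not tell whether a whole element is present.
Sdf2l1: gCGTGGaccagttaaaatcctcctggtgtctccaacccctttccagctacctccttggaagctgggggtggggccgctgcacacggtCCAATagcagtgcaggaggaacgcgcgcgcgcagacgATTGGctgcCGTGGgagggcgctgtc
Hsp90b1: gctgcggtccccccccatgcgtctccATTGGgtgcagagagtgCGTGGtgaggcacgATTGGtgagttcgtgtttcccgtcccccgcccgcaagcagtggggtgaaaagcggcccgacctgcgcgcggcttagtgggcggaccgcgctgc

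A CCACG was found in 85.2% of 27 promoters, which belong to 26 of the 30 tested unfolded protein response genes, and CCAAT in 77.8%, against 47.3% and 38.7% of the promoters of all tested genes. Of the 30 genes 17 rose and 0 fell. In the unfolded protein response list 18 rose and 2 fell after rescaling, and 1 fell without control replicate 1. Sdf2l1, a component of an ER chaperone complex, was at 17.7, 20.03 and 16.6 FPKM across the control libraries and 50.7, 59.98 and 56.7 FPKM across those of DKO cells. Hspa5, the ER chaperone BiP, was at 96.4, 127 and 120.3 in control and 226, 233 and 237 FPKM in DKO cells, and Hsp90b1, which encodes GRP94, went from 141 ± 23.7 to 366 ± 19.9 FPKM. Xbp1 went from 35.8 ± 5.92 to 84.5 ± 4.17 FPKM. Atf4 and Herpud1, which respond in the PERK branch and in ER degradation, had changes of 0.22 and -0.17 without a call.

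The secretory path downstream followed with 31 of 55 genes of translocation, glycosylation and export higher and 0 lower. Sec24d, a cargo adaptor of COPII vesicles, was at 1.74, 1.83 and 2.03 FPKM across the control libraries and 6.89, 6.06 and 6.81 FPKM across those of DKO cells. The translocon genes Sec61g and Sec61b rose by 1.17 and 1.08, and Lman1, a cargo receptor, by 0.93. Copa and Ganab, of the COPI coat and of glycan trimming, had changes of 0.29 and 0.28 without a call.

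Energy and protein synthesis genes rose broadly but by small amounts. Of 76 respiratory chain subunits, 63 rose and 0 fell, with a median of 0.65. In the respiratory chain list 39 rose without DKO replicate 3. Cox4i1, a subunit of cytochrome c oxidase, was at 167, 207 and 178 in control and 325, 358 and 393 FPKM in DKO cells. Of 31 constitutive proteasome subunits, 25 rose, and of 79 cytosolic ribosomal protein genes 70 rose, with medians of 0.53 and 0.60. In the proteasome list 15 rose without DKO replicate 2, and 14 rose without DKO replicate 3. In the ribosomal protein list 36 rose without control replicate 3, 34 rose without DKO replicate 2, and 30 rose without DKO replicate 3. Rpl28 went from 1286 ± 119 to 2311 ± 126 FPKM. The largest ribosomal protein change, in Rps27, rested on values of 11.1, 15.9 and 10.7 FPKM across the control libraries and 356, 409 and 12.1 FPKM across those of DKO cells, in which 1 DKO library lay within the range of the controls, and its call was lost after rescaling.

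Transcript length moved with these changes. Among the 10229 tested genes with a known transcript length (the median of a gene's protein-coding transcripts), split by length into 5 groups of about equal size, 29.8% of the shortest group rose (median annotated transcript up to 1024 bases) and 11% of the longest (from 3656 bases), while the percent called lower stayed between 2.1 and 3.47. After subtraction of the median change of each gene's own length group, the median was 0.36 for ribosomal protein genes, whose median transcript had 696 bases, and 0.41 for respiratory chain genes with 671 bases. It was 1.25 for mitotic genes and 0.82 for antiviral genes, whose transcripts are of middle length. The part of transcript length in these counts was not tested further.

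**Figure D4:**
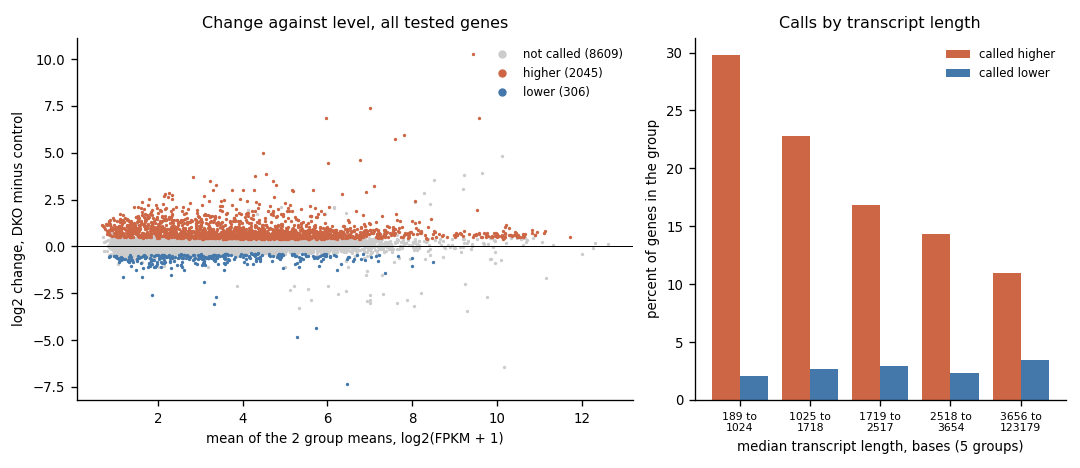
Left, log2 change (DKO minus control) against the mean of both group means as log2(FPKM + 1) for 10960 tested genes, with called genes in orange (higher) and blue (lower). Right, percent of genes called higher or lower in 5 groups of genes by the median length of a gene's annotated protein-coding transcripts; the orange bars step down from 29.8% to 11% and the blue bars stay between 2.1% and 3.47%.

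Metabolic genes were less uniform. Glycolysis had 12 of 23 genes higher and 2 lower. Gapdh was at 141, 180.4 and 171 FPKM across the control libraries and 395, 401 and 423 FPKM across those of DKO cells and Tpi1, triose phosphate isomerase, at 25.1, 28.5 and 27.04 in control and 63.6, 62.2 and 69.1 FPKM in DKO cells. The glucose transporter gene Slc2a3 fell from 11.5 ± 1.87 to 6.71 ± 0.317 FPKM, while Slc2a1, the transporter of proliferating cells, was at 14.4 ± 2.83 against 16.8 ± 0.592 FPKM. In cholesterol and fatty acid synthesis 6 of 31 genes rose, led by Ebp (0.82), and 1 fell, the desaturase gene Scd1 (168 ± 18.5 against 115 ± 1.52 FPKM). These counts are 19.4% and 3.23% of the tested members, close to the 18.7% and 2.79% of all tested genes. Srebf1 and Srebf2, the master regulators of that pathway, were not called. In the lipid synthesis list 6 rose and 2 fell after rescaling, 3 rose without DKO replicate 3, and 0 fell without control replicate 3, DKO replicate 2 or DKO replicate 3. In the glycolysis list 1 fell without control replicate 3, DKO replicate 1, DKO replicate 2 or DKO replicate 3.

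Of 20 cytosolic aminoacyl-tRNA synthetases 11 rose. Wars, the tryptophan enzyme and an interferon target, was at 18.6, 24.8 and 25.1 FPKM across the control libraries and 75.9, 67.3 and 76.2 FPKM across those of DKO cells, and the next largest change in the list was 0.81, for Aars. In ribosome biogenesis 12 of 48 genes rose, or 25% beside 18.7% of all tested genes. The median of that list was 0.30 as deposited and 0.09 after rescaling, beside 0.11 and -0.08 for all tested genes. Among its increases were Npm1 at 220.4 ± 23.6 against 367 ± 25.4 FPKM and the transcription factor gene Myc at 27.4 ± 2.37 against 39.7 ± 0.5702 FPKM. Among heat shock chaperones 8 of 16 rose, led by Hspa8, the constitutive HSC70, from 434 ± 63.2 to 751 ± 23.1 FPKM. In the synthetase list 7 rose without control replicate 3, 5 rose without DKO replicate 1 or DKO replicate 3, and 6 rose without DKO replicate 2. In the ribosome biogenesis list 7 rose without DKO replicate 1, and 4 rose without DKO replicate 2 or DKO replicate 3. In the heat shock list 5 rose without DKO replicate 2, and 4 rose without DKO replicate 3.

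Mitotic genes had the highest share of members called higher of any list here, 96.8%. Genes of G2 and mitosis are bound at a CHR element by the DREAM complex in resting cells and by MuvB with B-MYB and FOXM1 in cycling ones, commonly beside CCAAT boxes that NF-Y binds. The promoters of Mki67 (chr7:135716380-135716529, minus strand) and Top2a (chr11:99024190-99024339, minus strand), the largest mitotic changes with both motifs in the 150 bases before the start, are given with CHR (TTTGAA) and CCAAT in capitals on either strand.
Mki67: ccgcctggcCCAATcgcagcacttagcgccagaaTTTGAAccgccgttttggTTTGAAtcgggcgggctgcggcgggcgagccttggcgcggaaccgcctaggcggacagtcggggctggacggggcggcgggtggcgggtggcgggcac
Top2a: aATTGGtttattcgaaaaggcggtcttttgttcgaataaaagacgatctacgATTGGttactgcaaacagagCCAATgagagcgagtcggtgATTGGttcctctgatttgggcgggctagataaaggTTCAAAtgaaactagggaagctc

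A CHR motif was found in 38 of 54 promoters of mitotic genes, or 70.4%, against 12.7% of the promoters of all tested genes and 17.9% of all promoters in the table, and CCAAT in 74.1% against 38.7%. These promoters cover 52 of the 63 tested members. Of those 63 members 61 rose and 0 fell, with a median of 1.39. In the mitotic list 60 rose and 1 fell after rescaling. Cdca3, a regulator of mitotic entry, was at 1.08, 2.197 and 2.69 FPKM across the control libraries and 13.3, 15.4 and 14.8 FPKM across those of DKO cells. Birc5, which encodes survivin, was at 2.404, 5.45 and 3.72 in control and 17.2, 21.4 and 23.9 FPKM in DKO cells, and Cdc20, an activator of the anaphase-promoting complex, at 1.504, 3.85 and 4.805 in control and 14.4, 17.3 and 20.4 FPKM in DKO cells. The groups did not overlap in these 3 genes. Smc4, of condensin, and Pttg1, which encodes securin, were the 2 members without a call, and Pttg1 was at 16.7 ± 2.21 against 15.5 ± 0.724 FPKM.

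DNA replication and nucleotide synthesis had 43 of 53 genes higher and 0 lower. Rrm2, the inducible subunit of ribonucleotide reductase, was at 3.31, 7.29 and 6.29 FPKM across the control libraries and 31.8, 31.8 and 32.95 FPKM across those of DKO cells. The origin licensing gene Cdc6 was at 0.641, 0.961 and 0.678 in control and 4.37, 3.51 and 4.15 FPKM in DKO cells, and Uhrf1, which reads hemimethylated DNA for Dnmt1, at 5.98, 10.01 and 10.1 in control and 24.99, 26.4 and 26.5 FPKM in DKO cells. Pold1, a polymerase subunit, was at 40.3 ± 5.95 against 40.3 ± 2.51 FPKM. Replication-dependent histone genes, whose messages mostly lack a poly(A) tail, had 13 of 45 higher and 1 lower. The largest increases were in the H2A genes Hist1h2ao (2.12) and Hist1h2ag (1.91), which are near-identical copies, and the linker histone gene Hist1h1c fell by 0.50 on the log2 scale, a call lost without control replicate 1. In the replication list 42 rose and 1 fell after rescaling. In the histone list 11 rose and 5 fell after rescaling, 2 fell without control replicate 3 or DKO replicate 1, and 3 fell without DKO replicate 3.

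Inhibitors of cyclin-dependent kinases rose beside the cycle genes, in 4 of 5 tested. Besides Cdkn2a these were Cdkn3, a phosphatase that peaks in mitosis (0.737 ± 0.418 against 5.56 ± 1.04 FPKM), Cdkn2c, which encodes p18 (3.07 ± 1.497 against 7.88 ± 0.626 FPKM), and Cdkn2d, which encodes p19INK4d (11.1 ± 0.832 against 16.7 ± 1.496 FPKM). Cdkn1b, which encodes p27, was at 40.3, 49.3 and 53.8 in control and 45.1, 43.2 and 44.4 FPKM in DKO cells and was not called. In the kinase inhibitor list 4 rose and 1 fell after rescaling, 2 rose without DKO replicate 2, and 1 fell without control replicate 1.

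Several genes that define mature B cell subsets fell. Marginal zone B cells need Notch2 signals, which induce Dtx1 and Cr2. Of 23 marginal zone and Notch2 genes, 9 fell and 3 rose. In the marginal zone list 2 rose and 16 fell after rescaling, 1 rose without DKO replicate 3, and 14 fell without control replicate 1. Notch2 was at 41.7, 55.8 and 52.8 FPKM across the control libraries and 31.2, 28.1 and 29.3 FPKM across those of DKO cells. Dtx1, a regulator and target of Notch, was at 34.9, 46.1 and 44.3 in control and 19.2, 18.1 and 17.1 FPKM in DKO cells. Asb2, a ubiquitin ligase adaptor, was at 2.79, 3.05 and 3.05 in control and 0.372, 0.774 and 0.764 FPKM in DKO cells, and Myof, a membrane repair protein, at 5.32, 5.39 and 5.21 in control and 2.53, 2.54 and 2.51 FPKM in DKO cells. Asb2 passed the filter only through the control libraries, so its separation is in part fixed by the filter. Cd9, a tetraspanin of marginal zone, B-1 and plasma cells, went the other way, from 9.17 ± 1.18 to 17.8 ± 0.284 FPKM.

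Follicular genes fell or were not called. Of 18 tested, 6 fell and 0 rose. In the follicular list 0 rose and 14 fell after rescaling, 10 fell without control replicate 1, and 3 fell without control replicate 3. Fcer2a was at 300.1, 367 and 357 FPKM across the control libraries and 166, 168 and 167 FPKM across those of DKO cells. Cr2, which marginal zone cells carry most and Notch2 signals induce, was at 90.4, 112 and 109.7 in control and 42.2, 43.4 and 43.4 FPKM in DKO cells. Its fall is thus not particular to follicular genes. Both genes had DKO libraries within a narrow band below all controls. Cd55, a complement regulator, fell from 134 ± 12.4 to 84.8 ± 2.902 FPKM, and Gpr183, the oxysterol receptor that positions B cells at the outer follicle, from 22.4 ± 0.842 to 17.1 ± 0.416 FPKM. Klf2, a factor of follicular cells and quiescence, was at 169, 236 and 215 in control and 203, 215 and 211 FPKM in DKO cells, with overlapping groups.

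**Figure D5:**
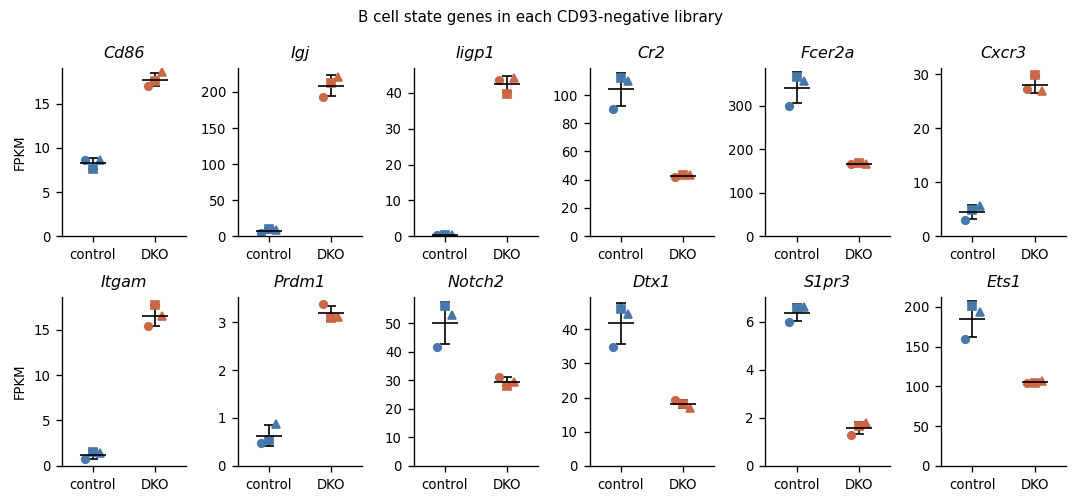
FPKM of 12 B cell state genes in each control (blue) and DKO (orange) library, with a shape for each replicate, the group mean as a horizontal line and the SD as an error bar (n = 3); each panel has its own axis from 0. Cd86, Igj, Iigp1, Cxcr3, Itgam and Prdm1 lie higher and Cr2, Fcer2a, Notch2, Dtx1, S1pr3 and Ets1 lower in DKO cells, with no overlap in any panel.

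Genes of T-bet-positive and age-associated B cells, an antigen-experienced population that accumulates with age and in autoimmunity, were higher in 13 of 19 cases with 1 decrease. Tbx21, which encodes T-bet and is an interferon gamma target, was at 2.19, 3.35 and 3.896 FPKM across the control libraries and 11.5, 11.7 and 12.5 FPKM across those of DKO cells. Itgam, which encodes CD11b, was at 0.717, 1.56 and 1.45 in control and 15.4, 17.7 and 16.5 FPKM in DKO cells, and Zbtb32, a repressor of B cell memory responses, at 1.76, 1.99 and 2.196 in control and 10.8, 13.5 and 13.4 FPKM in DKO cells. In the B-1 cell list, which shares Itgam and Zbtb32 with it, 9 of 16 rose and 2 fell. In the T-bet list 0 fell without control replicate 2, control replicate 3, DKO replicate 1, DKO replicate 2 or DKO replicate 3. In the B-1 list 1 fell without control replicate 2, control replicate 3, DKO replicate 1 or DKO replicate 3. Bhlhe41, a transcription factor of B-1 cells, was at 12.5, 12.3 and 11.3 in control and 31.1, 28.9 and 36.3 FPKM in DKO cells, and Spn, which encodes CD43, went from 11.04 ± 2.47 to 33.4 ± 3.38 FPKM. The macrophage markers summed to 21.9 to 28.5 FPKM in control and 25.2 to 27.9 FPKM in DKO libraries, and of the 4 tested C1qb and Emr1 rose, to 4.22 and 4.54 FPKM.

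Germinal center genes moved both ways, with 9 of 19 higher and 4 lower. In the germinal center list 5 rose without DKO replicate 1, DKO replicate 2 or DKO replicate 3, 1 fell without control replicate 2, control replicate 3 or DKO replicate 3, and 2 fell without DKO replicate 1 or DKO replicate 2. Mef2b, a transcription factor upstream of Bcl6, was at 2.68, 3.35 and 3.11 FPKM across the control libraries and 16.5, 16.1 and 18.1 FPKM across those of DKO cells, and Fas, a death receptor of germinal center cells, at 1.49, 1.97 and 3.82 in control and 7.08, 7.88 and 7.81 FPKM in DKO cells. Bcl6, the master regulator of the germinal center, was at 31.3 ± 3.37 against 29.8 ± 1.65 FPKM and was not called. Rgs13, a regulator of chemokine signalling in germinal centers, fell from 1.67 ± 0.291 to 0.664 ± 0.114 FPKM and passed the filter only through the control libraries. Of 18 transitional B cell genes 2 rose and 4 fell, among them Sox4 (-0.56) and Vpreb3 (-0.44). In the transitional list 1 rose and 10 fell after rescaling, 1 rose without control replicate 3, DKO replicate 2 or DKO replicate 3, 2 fell without control replicate 2 or DKO replicate 2, 1 fell without control replicate 3 or DKO replicate 3, and 0 fell without DKO replicate 1.

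Of 38 transcription factors of the B lineage, 4 rose and 3 fell, or 10.5% and 7.89% beside 18.7% and 2.79% of all tested genes. In the transcription factor list 4 rose and 24 fell after rescaling, 7 rose without control replicate 2, 11 fell without control replicate 1, and 1 fell without control replicate 2, control replicate 3, DKO replicate 1, DKO replicate 2 or DKO replicate 3. Batf, an AP-1 family factor needed for class switching, was at 8.48, 10.4 and 8.86 FPKM across the control libraries and 27.8, 28.6 and 23.9 FPKM across those of DKO cells, and Maf went from 1.47 ± 0.737 to 5.63 ± 0.213 FPKM. Ets1, which restrains plasma cell formation, was at 159, 201 and 193 in control and 104, 104 and 107 FPKM in DKO cells. Hhex and Pou2f1 fell by 0.46 and 0.45 on the log2 scale. Pax5, the factor of B cell identity, was at 195, 227 and 222 in control and 198, 182 and 202 FPKM in DKO cells, with overlapping groups. Jun was the 1 of 20 immediate early genes that rose, at 9.56, 13.4 and 13.8 FPKM across the control libraries and 50.7, 55.8 and 51.1 FPKM across those of DKO cells, while Ier5 and Klf4 fell. In the immediate early list 2 rose and 10 fell after rescaling, 2 rose without control replicate 1, control replicate 3, DKO replicate 1 or DKO replicate 3, 3 rose without control replicate 2, 6 fell without control replicate 1, and 1 fell without control replicate 2, control replicate 3, DKO replicate 2 or DKO replicate 3.

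Of 39 B cell receptor genes 1 rose and 3 fell, or 2.56% and 7.69% beside 18.7% and 2.79% of all tested genes. In the antigen receptor list 2 rose and 19 fell after rescaling, 3 rose without control replicate 1, 2 rose without control replicate 2 or control replicate 3, 0 rose without DKO replicate 1, DKO replicate 2 or DKO replicate 3, and 11 fell without control replicate 1. Rasgrp1, a Ras activator, fell from 35.1 ± 4.86 to 21.9 ± 0.769 FPKM. Lilrb4, an inhibitory receptor, rose from 0.7396 ± 0.105 to 4.55 ± 0.416 FPKM. Cd79b, Cd22 and Ptpn6 had changes between -0.14 and 0.25 without a call. Of 11 tested Fc receptor genes 1 rose and 2 fell, or 9.09% and 18.2% beside the same shares of all tested genes. In the Fc receptor list 1 rose and 4 fell after rescaling, and 0 rose without control replicate 2, DKO replicate 1, DKO replicate 2 or DKO replicate 3. Fcamr, which binds IgM and IgA, fell from 15.97 ± 1.12 to 9.75 ± 0.644 FPKM, and the inhibitory receptor gene Fcgr2b was at 50.1 ± 7.02 against 54.8 ± 3.74 FPKM.

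Survival and death genes moved in both functional classes. Of 24 tested, 10 rose and 1 fell. In the BCL2 list 9 rose and 6 fell after rescaling. Bcl2l1, which encodes the antiapoptotic BCL-XL, was at 0.548, 2.33 and 2.47 FPKM across the control libraries and 3.74, 2.93 and 5.66 FPKM across those of DKO cells, and its call was lost after rescaling and without control replicate 1. Bmf, a proapoptotic BH3-only protein, was at 10.2, 11.4 and 9.63 in control and 4.73, 5.83 and 4.02 FPKM in DKO cells. Bcl2 and Mcl1 were at 22.3 ± 1.51 against 21.2 ± 1.26 FPKM and 260.2 ± 42.2 against 253 ± 13.2 FPKM and were not called. The 4 Bcl2a1 copies rose by 0.88 to 1.27 on the log2 scale, with reads that may be split between them. Of 15 BAFF and CD40 pathway genes, Fas and Traf1 rose and Tnfrsf13c, the BAFF receptor of mature B cells, fell from 172 ± 23.4 to 124 ± 2.86 FPKM. These calls are 13.3% higher and 6.67% lower beside 18.7% and 2.79% of all tested genes. In the BAFF list 2 rose and 10 fell after rescaling, 6 fell without control replicate 1, and 0 fell without control replicate 2, control replicate 3, DKO replicate 1, DKO replicate 2 or DKO replicate 3.

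Epigenetic regulators differed by list. Of 24 genes of DNA methylation, 5 rose and 2 fell, or 20.8% and 8.33% beside 18.7% and 2.79% of all tested genes. In the DNA methylation list 5 rose and 11 fell after rescaling, 3 rose without DKO replicate 1 or DKO replicate 2, 2 rose without DKO replicate 3, 8 fell without control replicate 1, 1 fell without control replicate 2 or DKO replicate 2, and 0 fell without control replicate 3, DKO replicate 1 or DKO replicate 3. Dnmt1, the maintenance methyltransferase, went from 26.9 ± 3.43 to 37.7 ± 1.27 FPKM, and Gadd45b, linked to active demethylation, from 11.7 ± 2.04 to 22.9 ± 1.43 FPKM. Cxxc5, a CpG-binding protein, fell from 35.1 ± 5.39 to 24.99 ± 0.849 FPKM. Of 21 deacetylases and corepressors Hdac9 alone was called as deposited, at 8.397, 10.7 and 10.95 FPKM across the control libraries and 5.23, 4.42 and 5.07 FPKM across those of DKO cells. In the deacetylase list 0 rose and 11 fell after rescaling, 1 rose without control replicate 3, 3 fell without control replicate 1, and 2 fell without DKO replicate 2. Of 267 Zfp zinc finger genes 3 rose and 9 fell as deposited, with a median of -0.07. In the Zfp list 2 rose and 110 fell after rescaling, 5 rose without control replicate 1, 8 rose without control replicate 2, 6 rose without control replicate 3, 48 fell without control replicate 1, 5 fell without control replicate 2, 4 fell without control replicate 3, and 3 fell without DKO replicate 2 or DKO replicate 3.

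Some surface antigen and protease inhibitor genes that lie in clusters rose. Of 8 tested Ly6 family genes 4 rose, 0 fell and 4 were not called. In the Ly6 list 4 rose and 1 fell after rescaling. Ly6a, which encodes Sca-1 and is an interferon target, was at 76.4, 92.8 and 80.1 FPKM across the control libraries and 421, 445 and 474 FPKM across those of DKO cells. Ly6c1 and Ly6i rose by 1.91 and 1.87, while Ly6d and Ly6e, in the same family, had changes of -0.04 and 0.28 without a call. Serpina3f was at 1.38, 1.72 and 2.03 in control and 34.6, 35.04 and 36.1 FPKM in DKO cells and Serpina3g at 17.3, 21.8 and 19.6 in control and 136, 139 and 144 FPKM in DKO cells. In all, 7 of 11 tested serpin genes rose, 5 of them of the Serpina3 cluster, whose members are near-identical in part. In the serpin list 7 rose and 1 fell after rescaling, and 4 rose without DKO replicate 1, DKO replicate 2 or DKO replicate 3.

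Such clusters were searched in the order of genes on the chromosomes, taken from RefSeq for 10841 tested genes. There were 87 runs of at least 3 neighbouring tested genes called higher and 3 runs called lower. With 18.7% of genes called higher some runs arise from the share alone, and the counts were not tested against that. In 8 runs every member rose by at least 1 on the log2 scale. They held Serpina3f, Serpina3g, Serpina3h, Serpina3i and Serpina3n, the chemokine genes Ccl3 and Ccl4 with 2 neighbours, the GBP genes Gbp4, Gbp10, Gbp6 and Gbp11, the Ly6 genes Ly6i, Ly6a, Ly6c1 and Ly6c2, the IRG genes Gm12250, Igtp and Irgm2, the mitotic genes Pbk and Esco2 with Gm600, the leukocyte receptor genes Gp49a and Lilrb4 with Dcbld1, and the class I genes H2-Q8 and H2-Q9 with LOC547349. Most are families of similar genes, in which reads may be shared between copies.

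Another run held Ddt, Gstt3, Gstt1, Gstt2, Mif and Derl3, of which the Gstt genes are 1 family and Ddt and Mif are related, with a median log2 change of 1.16. Mif, a cytokine, was at 100.4, 117 and 106 FPKM across the control libraries and 210.1, 242 and 242 FPKM across those of DKO cells, and Derl3, a factor of ER degradation, at 4.37, 6.56 and 4.88 in control and 17.04, 11.2 and 12.7 FPKM in DKO cells. Prg2, a granule protein of eosinophils that plasma cells also make, lay in a run with Slc43a1, Slc43a3, Prg3 and Ssrp1, which mixes relatives with unlike genes. The 3 runs of decreases held Fcer2a with the lectin genes Cd209a and Cd209d, Galnt6 with Acvr1b and a cDNA clone, and the Notch target Hes1 with 2 cDNA clones. Hes1 was at 14.4, 17.7 and 19.1 FPKM across the control libraries and 12.01, 11.3 and 11.9 FPKM across those of DKO cells. Cd209a and Cd209d, lectins of dendritic and other myeloid cells, were at 4.22 ± 0.931 against 2.49 ± 0.517 FPKM and 4.82 ± 1.67 against 2.24 ± 1.04 FPKM, and the groups overlapped for Cd209d.

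Markers of other cell types moved unevenly. Of 7 red cell markers 5 rose as deposited and 3 after rescaling, with summed levels of 48.1 to 64.1 FPKM in control and 179 to 207 FPKM in DKO libraries. Slc4a1, the anion exchanger of red cells, was at 0.4104, 0.923 and 0.556 FPKM across the control libraries and 4.25, 3.5 and 4.61 FPKM across those of DKO cells. Of 12 natural killer cell markers only Gzmb was called as deposited, and of 5 neutrophil markers none was. In the red cell list 3 rose and 0 fell after rescaling, and 3 rose without DKO replicate 1. In the natural killer cell list 3 rose without control replicate 2, and 1 fell without control replicate 1. In the neutrophil list 0 rose and 2 fell after rescaling, and 1 rose without control replicate 2 or DKO replicate 1. Of 10 dendritic cell markers 4 rose and 1 fell, or 40% and 10% beside 18.7% and 2.79% of all tested genes. Their summed levels were 89.7 to 125 FPKM in control and 141 to 155 FPKM in DKO libraries. In the dendritic cell list 4 rose and 3 fell after rescaling, and 2 rose without DKO replicate 2. There 2 fell without control replicate 1, and 0 fell without control replicate 2, DKO replicate 2 or DKO replicate 3. The part of all these cell types in the results was not tested.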

How the data were processed

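The authors deposited FPKM values, 1 column per library, and the labels' protocols name a RNeasy micro kit and a strand-specific SureSelect library kit. The tools, per the submitters' processing notes, were Cufflinks 2.1.1, TopHat2 2.0.8 and Bowtie2 2.1.0, on mm9. The annotation and the handling of reads that map to several genes are not given in the sources used here. FPKM are not counts, so no count model was used, depth is unknown and no intervals on single values are given. Dates had replaced 25 gene names in the deposited table, and these could not be read.

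Tests used limma 3.58.1 under R 4.3.3 (lmFit and eBayes with trend, two-sided) on log2(FPKM + 1) of genes that reached 1 FPKM in 3 or more of the 6 libraries, groups taken from the titles, without covariates, with Benjamini-Hochberg adjustment over all 10960 genes and a threshold of 0.05. The code was tested on simulated data. Replicate numbers were not used to pair the samples. The deviations of same-numbered libraries from their group means correlated at 0.02, -0.11 and -0.09, which with so few libraries per group cannot exclude a pairing. Alternatives changed the pseudocount (0.1 or 5), the filter (none, or 5 FPKM), the scaling (upper quartile or quantile), the trend (none) and the weights (by sample quality), added a replicate block, or left out 1 library. One more, upper quartile scaling without control replicate 1, was chosen after seeing the data.

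Named genes are the 25 largest called changes in each direction with a group mean of at least 5 FPKM and groups that do not overlap, without predicted genes, clones, small RNA and receptor segments, up to 6 called members of a list in each direction and 4 members without a call, and runs of neighbours. The members and lists were chosen with earlier results of these data known. Results for some members of these lists are not reported here. Promoters, gene order (RefSeq, GRCm38.p6) and transcript lengths (GENCODE, GRCm38) were matched by symbol and carry no coordinates over to the mm9 values. Promoters were found for 8662 of the 10960 tested genes (under 80%), so no promoter property is compared over all called genes. Figures were drawn with matplotlib 3.10.9.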

Additional observations from a re-analysis of the deposited data

How the results depend on the processing

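The count of genes higher in DKO cells lay between 1468 and 2932 over the settings that kept all libraries, each within 1.5 times of 2045. With 1 library left out it was 1180 to 2630. The count of lower genes, 306, depended on scaling, with 2609 after upper quartile rescaling, 2314 after quantile normalization, 1384 with sample quality weights, 2280 with upper quartile rescaling without control replicate 1, and 184 without a filter, where more genes were tested. With 1 library left out it was 188 to 1109, the highest without control replicate 1, whose quality weight was the lowest. A replicate block gave 2435 higher and 439 lower genes. The numbers were not taken as pairs in the main fit, and 2 of 6 libraries correlated best with their own number. Of 255 genes named, upper quartile rescaling removed the call of 6 and made 34 new calls, all lower. Among these the sign turned for Irf3 (log2 change -0.19), Klf2 (-0.19), Pold1 (-0.21), Stat5b (-0.20) and Tyk2 (-0.19). Quantile normalization gave -0.22, -0.28, -0.24, -0.18 and -0.18 for these, -0.32 for Cd79b and -0.18 for Irf4, and rescaling without control replicate 1 gave -0.22 for Irf3, -0.22 for Klf2, -0.23 for Pold1 and -0.19 for Stat5b. The cause was not tested. Without control replicate 1, 2 or 3, 4, 3 and 3 named genes passed the filter in too few libraries to be tested, and 27, 27 and 26 without DKO replicate 1, 2 or 3, Cdkn2a and Cadm1 among them. Leaving out a library removed 5 to 24 calls of named genes. Low FPKM values cannot be given a detection limit because depth is unknown.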
